A study of Mus musculus with 30 samples.

Results

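Transcripts of glycolysis and of pyruvate entry into mitochondria were followed in sorted mouse bone marrow progenitors, in hematopoietic stem cells (HSCs) and in multipotent progenitors (MPPs). The set was defined by 34 gene names of the pathway. These names matched 35 of the 55471 rows in each count table, because Aldoa, the muscle-type aldolase, occupies 2 rows with different Ensembl identifiers. All mice were of the C57BL/6 strain, and each RNA sample was a pool of 4 mice. Control mice were given phosphate-buffered saline (PBS), and treated mice were given MTP10-HDL, a nanobiologic made of high-density lipoprotein loaded with a muramyl peptide, a ligand of the Nod2 pathway. In the text, controls are the PBS libraries and treated libraries those with MTP10-HDL. The HSC table held 7 PBS and 6 MTP10-HDL libraries, and the MPP table held 2 PBS libraries, numbered 2 and 3, and 3 MTP10-HDL libraries. Per the labels, MPP donors received 3 injections within 5 days and were killed on the following day. The schedule for the HSC donors, the age of the mice and their sex were not stated in the labels or files. The p-values below measure the spread between pools, not between single mice. The series also holds 12 samples of chromatin accessibility, which were not analysed here.

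Glycolysis splits glucose into pyruvate in the cytosol, with a net gain of ATP and NADH. Pyruvate is then reduced to lactate by lactate dehydrogenase and exported, or carried into the mitochondrion and oxidised to acetyl-CoA by the pyruvate dehydrogenase complex, which pyruvate dehydrogenase kinases switch off. Quiescent HSCs are known for relying on glycolysis, and glycolytic genes as a class are textbook targets of the hypoxia-inducible factors and of MYC, which bind sites built around ACGTG and CACGTG.

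Promoter sequence was examined for these letters after several glycolytic genes stood higher together in the HSC table, the cause of which was not tested. RefSeq on GRCm38.p6 gave the 250 bases before the annotated transcript starts of 33 of the 34 genes, in 49 windows. On either strand, ACGTG was present in 20 of the 49 windows (40.82%). It was present in 16.57% of all 32851 windows and in 20.73% of the 14710 windows of genes tested in HSCs. Windows of a gene can overlap, and the same Aldoa match was counted in overlapping windows. CACGTG, which contains ACGTG, was present in 12.24% of the windows of the set and in 7.94% of those of tested genes. GGGCGG, the core of the GC box, was present in 55.1% and 52.81%, CCAAT in 36.73% and 34.83%, and TATAA in 14.29% and 13.6%. Median GC content was 61.6% in windows of the set and 58.8% in those of tested genes. By gene, ACGTG was found in 7 of the 11 genes with an unadjusted p under 0.05 in HSCs and in 9 of the 22 others. Of all 27025 genes with a window, 18.49% held it, a share not limited to genes tested in HSCs. The set had 49 windows for 33 genes, against 32851 for 27025, and more windows give more room for a match. The 11 genes were picked by p from these same data, and their split from the 22 others was not tested. A match describes letters only, not a bound site. The following 5 windows, 4 with matches and 1 without, belong to 5 of the genes with an unadjusted p under 0.05 in HSCs. Ldha, Pkm and Eno1 have further windows, which are not printed and held no match. The windows are printed 5′ to 3′ with ACGTG or its reverse complement CACGT in capitals.
Ldha, chr7:46845554-46845803, plus strand: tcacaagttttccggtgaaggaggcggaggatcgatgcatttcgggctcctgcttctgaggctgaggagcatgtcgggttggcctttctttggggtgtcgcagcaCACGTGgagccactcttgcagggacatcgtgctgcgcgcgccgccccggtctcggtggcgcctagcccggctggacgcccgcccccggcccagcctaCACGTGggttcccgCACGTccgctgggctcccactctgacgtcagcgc
Pgk1, chrX:106186850-106187099, plus strand: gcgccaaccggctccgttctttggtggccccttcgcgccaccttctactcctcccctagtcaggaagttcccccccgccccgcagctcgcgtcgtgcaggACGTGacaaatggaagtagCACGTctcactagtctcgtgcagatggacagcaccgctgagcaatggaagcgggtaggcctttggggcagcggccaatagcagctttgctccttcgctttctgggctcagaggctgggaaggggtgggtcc
Slc16a3, chr11:120948817-120949066, plus strand: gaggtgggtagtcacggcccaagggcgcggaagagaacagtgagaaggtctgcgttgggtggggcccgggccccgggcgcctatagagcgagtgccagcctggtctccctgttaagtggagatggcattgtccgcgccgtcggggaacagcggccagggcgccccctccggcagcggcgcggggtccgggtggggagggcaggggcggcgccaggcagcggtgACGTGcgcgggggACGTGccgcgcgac
Pkm, chr9:59656977-59657226, plus strand: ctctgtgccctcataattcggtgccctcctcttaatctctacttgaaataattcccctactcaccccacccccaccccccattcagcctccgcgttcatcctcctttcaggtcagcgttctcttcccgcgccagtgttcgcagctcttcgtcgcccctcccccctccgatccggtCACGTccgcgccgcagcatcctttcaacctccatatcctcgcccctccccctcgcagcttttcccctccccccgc
Eno1, chr4:150236458-150236707, plus strand: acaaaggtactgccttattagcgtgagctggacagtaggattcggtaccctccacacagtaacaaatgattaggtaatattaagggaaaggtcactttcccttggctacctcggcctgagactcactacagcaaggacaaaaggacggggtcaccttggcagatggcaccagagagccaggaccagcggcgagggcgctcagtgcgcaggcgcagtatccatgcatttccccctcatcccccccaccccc
The Ldha window held 5 matches, because each of its pair of CACGTG palindromes reads as ACGTG on both strands, and the first base of these matches lay 145, 144, 48, 47 and 34 bases before the start. In the Pgk1 window 2 matches began 150 and 131 bases before the start, and in the Slc16a3 window 2 began 27 and 14 bases before it. The Pkm window shown held 1 match, 75 bases before the start, and the Eno1 window held none. On the same build the Ldha gene spans chr7:46842274-46855627, Pgk1 chrX:106187100-106203699, Slc16a3 chr11:120948484-120959000, Pkm chr9:59656576-59679372 and Eno1 chr4:150236708-150248879.

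Libraries held 4064155 to 7879858 counts in HSCs and 11252479 to 32769369 in MPPs. Since the preparation kits were not the same, no level is compared between HSCs and MPPs. Levels below are CPM, the counts of a gene brought to the same effective library size by TMM scaling. The rows of the set held 6817 to 19463 counts per HSC library and 44345 to 139922 per MPP library. All 14 stem and progenitor markers, Kit, Procr and Mecom among them, were detected in both tables. Markers of other cells were present too, and in HSCs the summed level of the neutrophil markers ran from 125 to 4224 CPM in PBS and from 696 to 6246 in MTP10-HDL libraries. Immunoglobulin genes took 0.271% to 19.8% of HSC counts with PBS (median 2.45%) and 0.374% to 4.90% with MTP10-HDL (median 1.33%). The part of this share in the values of the set was not tested. The HSC libraries also fell into technical groups of both treatments. PBS 1 and 4 and MTP10-HDL 2 and 3 held few detected genes, PBS 2 and 3 and MTP10-HDL 1 and 4 a high share of counts on ribosomal RNA genes, and PBS 5 to 7 and MTP10-HDL 5 and 6 neither.

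In HSCs, glycolytic transcripts had mostly higher mean levels with MTP10-HDL, among them those of Pkm, Eno1, Ldha, Pgk1, Aldoa and the lactate exporter Slc16a3, but none passed the false discovery rate (FDR) threshold of 0.05. Of the 34 rows tested, 27 had a higher mean level (79.4%, against 47.7% of all 16631 genes tested). The median log2 fold change was 0.21 over the set and -0.02 over all genes. By edgeR's quasi-likelihood test 0 genes of any kind were called at the FDR (0%), whereas 85 genes were called by DESeq2 and none of the set by either tool or by limma voom. An unadjusted p under 0.05 was reached by 11 members (32.4%, against 8.83% of all genes), all of them higher (4.36% of all genes), and by 0 members that were lower (against 4.47%). Among genes with a mean of at least 10 CPM, 10 of 29 members and 6.72% of all genes were higher at that p. The members were chosen with earlier results of these data known, so these shares hold for the list as drawn up. Of 38 other pathway genes tested, 2 were higher and 2, the pyruvate kinase gene Pklr among them, were lower at that p. Adjusted p-values of the 11 ran from 0.278 for Pkm to 0.555 for Slc2a1 (edgeR's quasi-likelihood test, Benjamini-Hochberg adjustment over all genes). The median log2 fold change of the set was 0.13 without MTP10-HDL 3, the lowest value with any 1 library left out. In such bulk samples a different share of a cell type and a different amount of RNA per cell cannot be told apart.

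The summed level of the set was 1501 to 2206 CPM in the PBS libraries (median 1798) and 1944 to 2585 CPM in the MTP10-HDL libraries (median 2299). The ranges overlapped. In single libraries, 11 to 25 of the 35 rows lay above their PBS mean with PBS and 22 to 30 with MTP10-HDL. For 10 genes, Slc16a3, Gpi1, Pfkl, Aldoa, Pfkfb3, Pgk1, Eno1, Pkm, Ldha and Pdk3, all 6 MTP10-HDL libraries lay above the PBS median. The share of all genes tested with this order was not counted, so the number has no background to be read against.

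**Figure D1:**
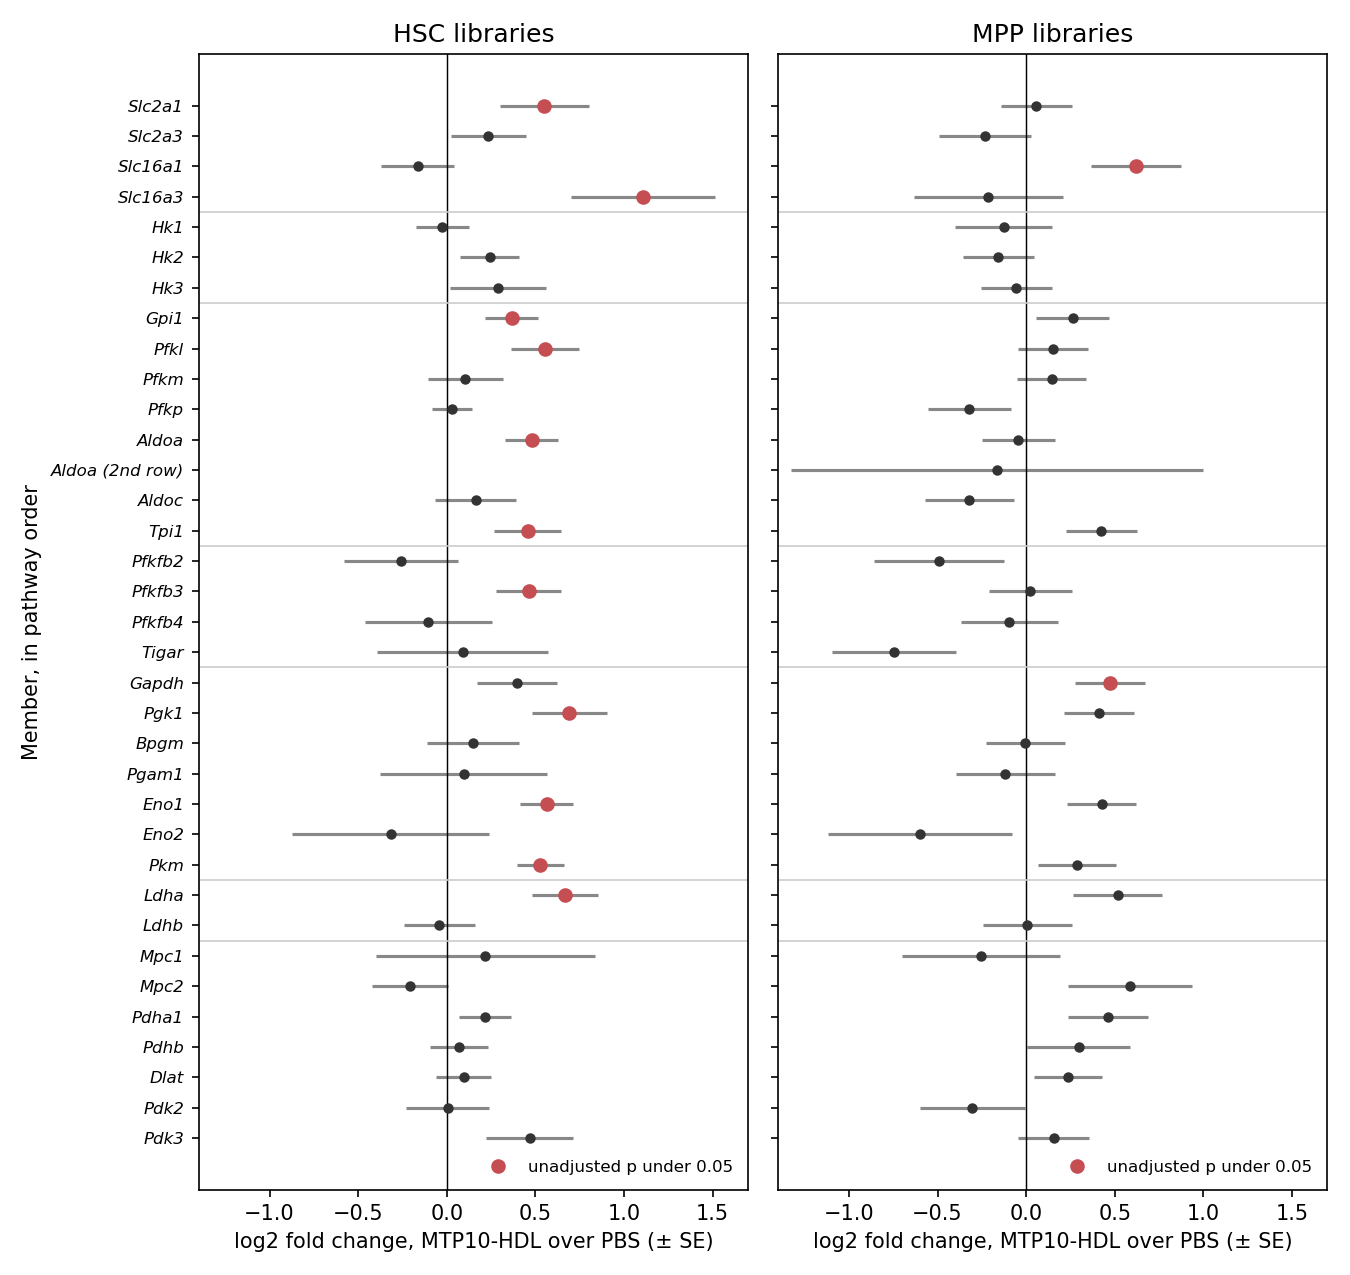
Log2 fold change of each row of the set, MTP10-HDL over PBS, with its standard error (horizontal bar), in HSCs (left) and MPPs (right), from carriers at the top to pyruvate entry at the bottom. Red points have an unadjusted p under 0.05, reached by 11 rows in HSCs and 2 in MPPs, all to the right of 0, and the second Aldoa row has no HSC value because its counts were too low to test.

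Among the carriers, Slc2a1 encodes GLUT1, the widespread glucose transporter. Its level in HSCs was 21.8 to 60.2 CPM in controls (median 32.4) and 32.1 to 72.1 CPM after treatment (median 48.3). The groups overlapped: PBS 4 was at the top of its group, and only MTP10-HDL 2 and 6 lay above it. Means were 34.6 ± 13.1 (SD, n = 7) and 50.8 ± 17.0 CPM (SD, n = 6), a log2 fold change of 0.55 (SE 0.25). Slc2a3, which encodes the high-affinity transporter GLUT3, was at 144 ± 49.1 and 169 ± 40.9 CPM, with a log2 fold change of 0.23 (SE 0.21). Slc16a3 encodes MCT4, a lactate exporter of glycolytic cells. It was measured on few reads, 10 to 85 per library, with 1.25 to 7.28 CPM in PBS libraries (median 4.38) and 4.44 to 12.9 CPM in MTP10-HDL libraries (median 10.7). MTP10-HDL 4 and 5 lay within the PBS range and the other 4 above it. Its log2 fold change of 1.11 (SE 0.41) was the largest of the set. Slc16a1, which encodes MCT1, the lactate carrier of most cells, was at 59.4 ± 8.47 and 53.0 ± 18.4 CPM (log2 fold change -0.17, SE 0.21). Of the counts of both lactate carriers, Slc16a3 held 1.73% to 11.2% with PBS and 6.72% to 32.5% with MTP10-HDL. The Slc16a3 gene overlaps Csnk1d, and the strand setting of the counting is not given, so reads of the overlap could belong to either gene.

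Hexokinases trap glucose by phosphorylation, and none of the 3 measured had an unadjusted p under 0.05. Hk2, the inducible mitochondria-bound form, was at 38.7 to 51.0 CPM in controls (median 45.7) and 40.9 to 81.5 CPM after treatment (median 45.8). The medians were nearly equal, and MTP10-HDL 3 and 1 alone lay above the PBS libraries. Its log2 fold change was 0.24 (SE 0.17). Hk1, the constitutive form, was at 80.8 ± 15.1 and 79.5 ± 11.4 CPM (log2 fold change -0.02). Hk3, a form typical of myeloid cells, was at 44.3 ± 15.0 and 54.2 ± 24.8 CPM (log2 fold change 0.29).

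All 7 tested rows of the upper pathway, which turns glucose 6-phosphate into triose phosphates, had positive fold changes, 4 of them with an unadjusted p under 0.05. Gpi1, the isomerase that opens the pathway, was at 98.0 to 186.0 CPM in controls (median 117) and 139 to 189 CPM after treatment (median 155). All MTP10-HDL libraries lay above 6 of the PBS libraries, and PBS 4 lay among the highest of the MTP10-HDL libraries. The log2 fold change was 0.37 (SE 0.15). Pfkl, the liver-type phosphofructokinase of the committed step, was at 26.4 to 59.5 CPM in controls (median 35.2) and 43.6 to 66.9 CPM after treatment (median 59.5). Only MTP10-HDL 4, 5 and 6 lay above every PBS library. Its log2 fold change was 0.55 (SE 0.19). Pfkp, the platelet-type phosphofructokinase, was among the most even genes of the set, with 67.2 to 83.5 CPM (median 75.3) and 64.9 to 84.9 CPM (median 75.3). Its log2 fold change was 0.03 (SE 0.11), and it was -0.04 with upper quartile scaling. Pfkl held 33.6% ± 6.95 of the counts of both genes with PBS and 42.6% ± 6.32 with MTP10-HDL, with overlapping ranges of 27.1% to 45.4% and 33.9% to 50.7%. Aldoa splits fructose 1,6-bisphosphate and was at 81.5 to 157 CPM in controls (median 139) and 152 to 226 CPM after treatment (median 190.1). The 4 highest MTP10-HDL libraries exceeded all PBS libraries, and PBS 7 stood far below its group. On the log2 scale the fold change was 0.48 (SE 0.15). The second Aldoa row held 0 to 15 counts and was not tested. Tpi1, which interconverts the triose phosphates, was at 27.6 to 56.1 CPM in controls (median 39.5) and 34.8 to 75.7 CPM after treatment (median 58.0). MTP10-HDL 1 was the low library of its group and lay within the PBS range, while 4 of 6 lay above it. Pools differed by a log2 fold change of 0.46 (SE 0.19). Pfkm and Aldoc, the muscle-type phosphofructokinase and the brain-type aldolase, had log2 fold changes of 0.11 and 0.16.

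The level of fructose 2,6-bisphosphate, the strongest activator of phosphofructokinase, is set by bifunctional enzymes. Pfkfb3, the isoform with the highest kinase relative to phosphatase activity, was at 34.9 to 60.3 CPM in controls (median 48.1) and 49.6 to 105 CPM after treatment (median 59.2). MTP10-HDL 3 was the highest library, and the 3 lowest MTP10-HDL libraries lay within the PBS range. The log2 fold change was 0.46 (SE 0.18). Pfkfb2, the heart-type isoform, was at 24.1 ± 8.48 and 20.1 ± 9.02 CPM, with a log2 fold change of -0.26, and Pfkfb4 had one of -0.10. Tigar, a phosphatase that lowers fructose 2,6-bisphosphate, had a log2 fold change of 0.09 on 4 to 52 counts per library.

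In the lower pathway, which harvests ATP and NADH, 6 of 7 rows had positive fold changes and 3 an unadjusted p under 0.05. Pkm, the pyruvate kinase of most tissues, was at 87.6 to 136 CPM in controls (median 95.6) and 136 to 184 CPM after treatment (median 144). All MTP10-HDL libraries lay above all PBS libraries, which was seen for 1 of 34 members and for 0.174% of all genes tested (the reverse order for 0 members and 0.168% of genes). The highest PBS library and the lowest MTP10-HDL library lay at 135.9 and 136.4 CPM. On the log2 scale the fold change was 0.53 (SE 0.13). Eno1, the widespread enolase, was at 35.7 to 71.8 CPM in controls (median 48.4) and 67.8 to 90.2 CPM after treatment (median 76.5). PBS 4 was the only PBS library within the MTP10-HDL range. Pools differed by a log2 fold change of 0.56 (SE 0.15). Pgk1, the first ATP-yielding kinase, was at 9.69 to 19.8 CPM in controls (median 15.0) and 17.2 to 30.9 CPM after treatment (median 22.9). The 4 highest MTP10-HDL libraries lay above all PBS libraries, and PBS 1 lay within the MTP10-HDL range. The log2 fold change was 0.69 (SE 0.21). Gapdh, which produces NADH, was at 15.5 ± 4.77 and 20.4 ± 3.08 CPM (log2 fold change 0.40, SE 0.22). It and Pgam1, the mutase of the next steps, rested on few counts in the HSC libraries, 40 to 173 and 6 to 28. Both have processed copies elsewhere in the genome, and whether reads with several matches were dropped is not given. Named copies in the table added 0.261 CPM to Gapdh and 0.491 CPM to Pgam1 in the PBS mean, and with them the log2 ratio of the Pgam1 means went from 0.10 to -0.01. Pgk1, Ldha, Aldoa, Tpi1 and Eno1 also have named copies, so the same open question on reads holds for them. With the copies added, their log2 ratios of means were 0.66, 0.65, 0.47, 0.45 and 0.56, against 0.69, 0.67, 0.48, 0.46 and 0.57. The fold changes of Pgam1, Bpgm (a mutase abundant in red cells) and Eno2 (the neuronal enolase) were 0.10, 0.15 and -0.32 on the log2 scale.

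**Figure D2:**
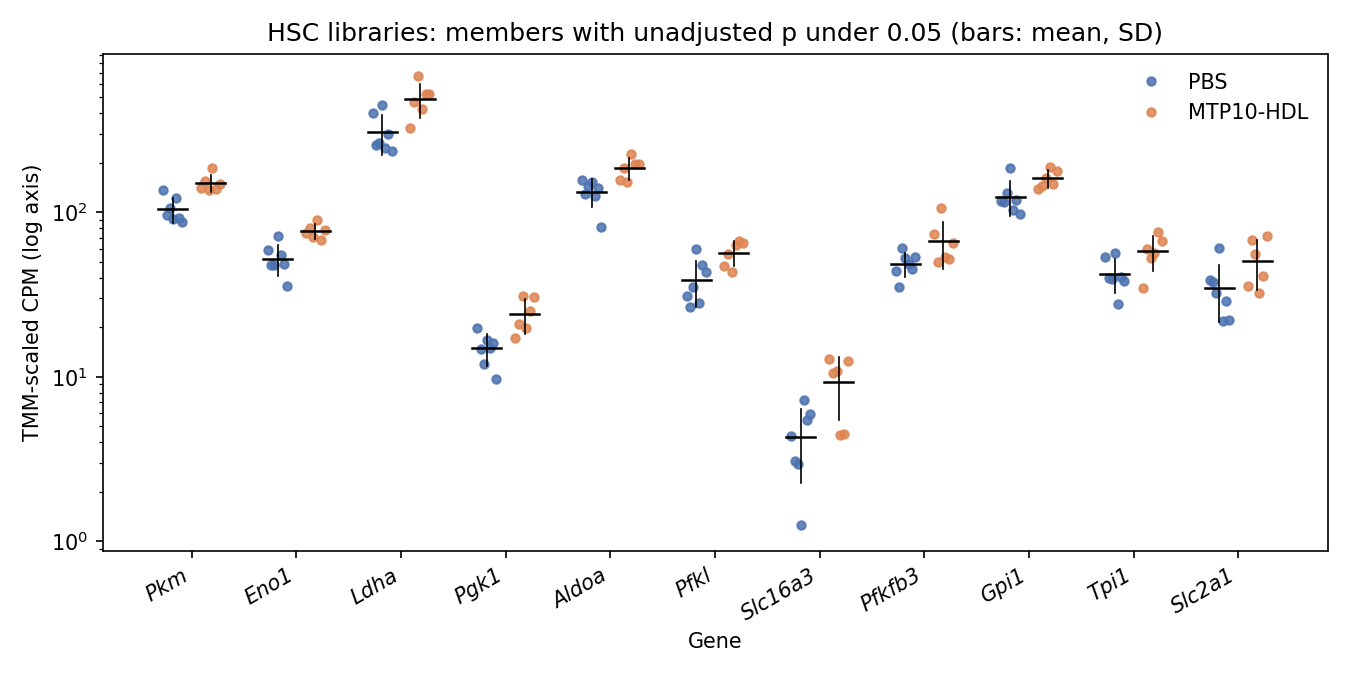
TMM-scaled CPM on a log axis in each HSC library, PBS (blue, n = 7) and MTP10-HDL (orange, n = 6), for the 11 genes with an unadjusted p under 0.05, with the mean (horizontal line) and SD (vertical line). Pkm is the only gene whose groups do not overlap, and the PBS libraries reach into the MTP10-HDL range for the other 10.

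Ldha, the lactate dehydrogenase subunit that favours lactate formation, was at 237 to 449 CPM in controls (median 265) and 326 to 667 CPM after treatment (median 494). PBS 1 and 4 were high in their group and lay within the MTP10-HDL range, and the 4 highest MTP10-HDL libraries exceeded every PBS library. On the log2 scale the fold change was 0.67 (SE 0.19). Ldhb, the subunit of oxidative tissues, was at 24.6 ± 6.29 and 23.9 ± 5.22 CPM (log2 fold change -0.04, SE 0.20). Ldha held 92.4% ± 1.59 (SD, n = 7) of the counts of both subunits with PBS, with a range of 89.8% to 95.0%, and 95.3% ± 0.788 (SD, n = 6) with MTP10-HDL, with a range of 94.0% to 96.1%. The ranges overlapped, and these shares were not tested.

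Genes of pyruvate entry had a median log2 fold change of 0.09 over 7 rows, against 0.21 over the set. None of them had an unadjusted p under 0.05. Mpc1 and Mpc2 form the mitochondrial pyruvate carrier. Mpc1 was at 0.523 to 3.41 CPM in controls (median 1.32) and 0.172 to 4.05 CPM after treatment (median 1.73), on 1 to 25 counts per library, so no difference was detectable at this depth. Mpc2 was at 30.4 ± 9.72 and 26.4 ± 5.19 CPM (log2 fold change -0.21, SE 0.21). Pdha1, the catalytic subunit of pyruvate dehydrogenase, was at 50.4 to 68.8 CPM in controls (median 56.5) and 47.2 to 85.7 CPM after treatment (median 65.3). The MTP10-HDL libraries spanned the whole PBS range, and the log2 fold change was 0.21 (SE 0.15). Pdhb and Dlat, the other core subunits, had log2 fold changes of 0.07 and 0.09. Of the inhibitory kinases, Pdk3 was at 37.2 ± 17.6 and 51.6 ± 7.12 CPM (log2 fold change 0.47, SE 0.25), and Pdk2 at 15.7 ± 4.57 and 15.7 ± 3.37 CPM.

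**Figure D3:**
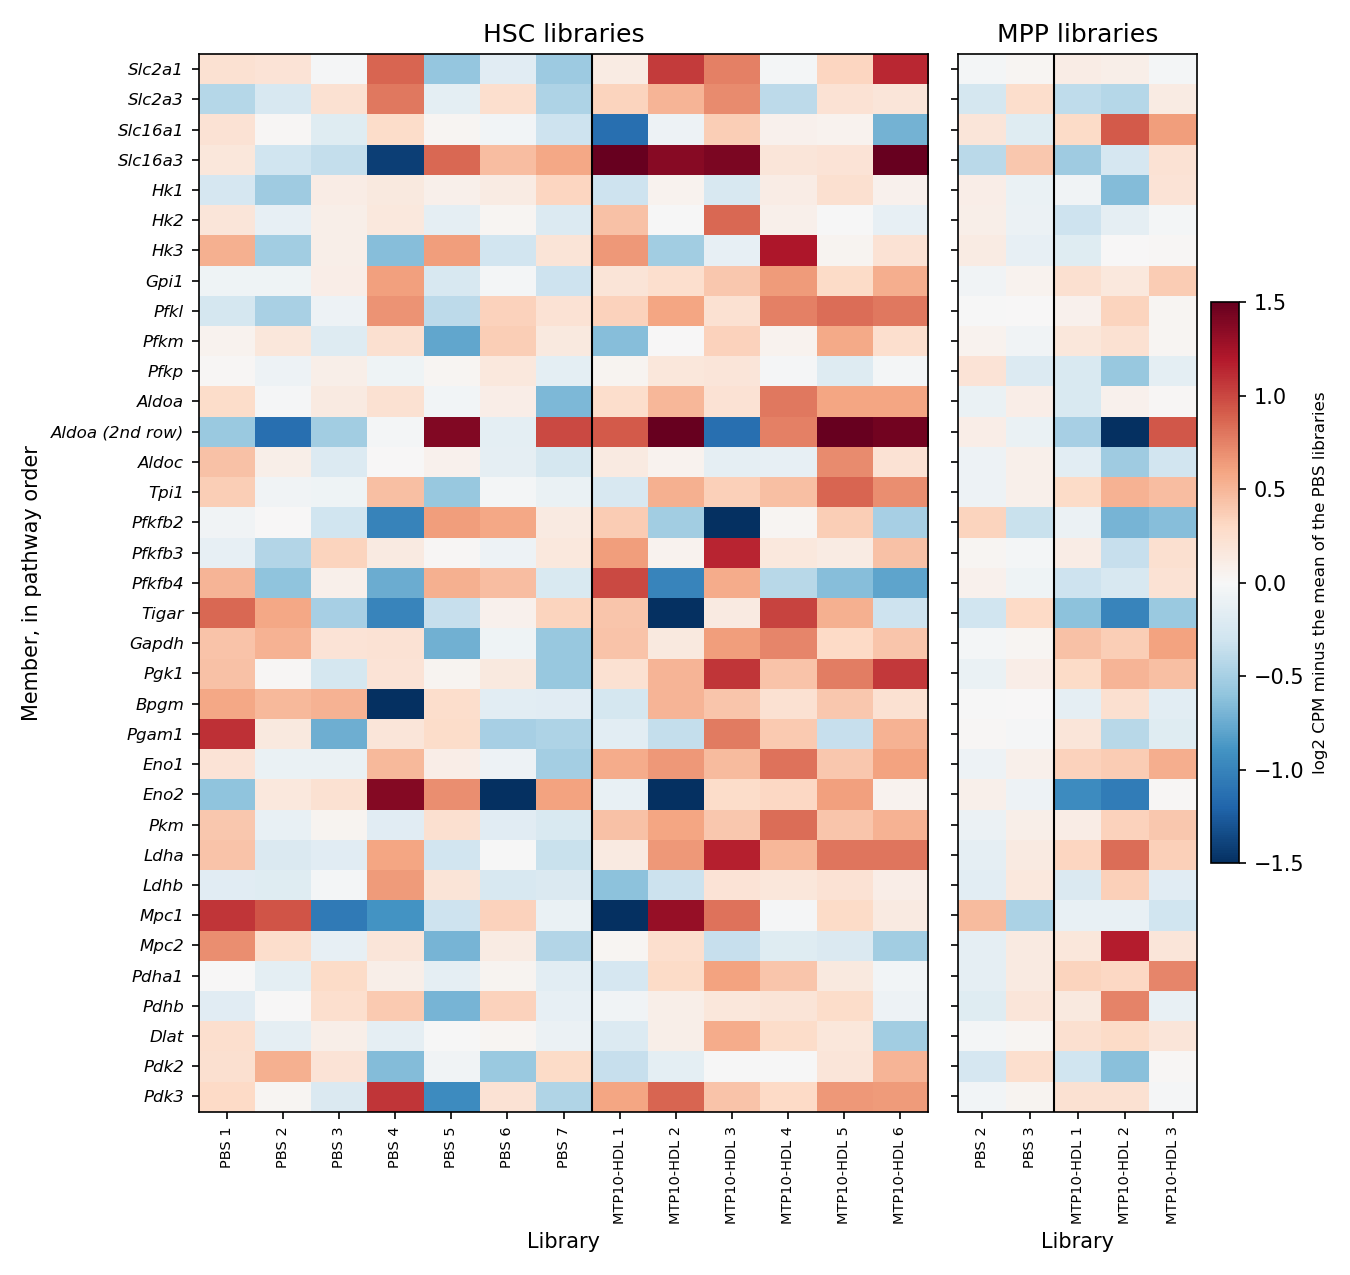
Log2 CPM of each row minus the mean of the PBS libraries of that cell type, by library, for HSCs (left) and MPPs (right), with red above and blue below that mean and a black line between PBS and MTP10-HDL. In HSCs 22 to 30 of the 35 rows lie above the PBS mean in each MTP10-HDL library, against 11 to 25 in each PBS library.

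Within the technical groups of HSC libraries, the median difference of the set (MTP10-HDL minus PBS, mean log2 CPM) was 0.11 in those with few detected genes, 0.22 in those with much ribosomal RNA and 0.32 in the rest. Of the 35 rows, 23, 24 and 27 were higher, against 49.1%, 50.4% and 49.4% of all genes. Higher in all 3 groups were 14 rows, Slc16a3, Hk2, Gpi1, Pfkl, both Aldoa rows, Tpi1, Pfkfb3, Gapdh, Pgk1, Eno1, Pkm, Ldha and Pdha1. Slc16a1 and Mpc2 were higher in none. The share of all genes higher in all 3 groups was not counted. Pkm differed by 0.38, 0.67 and 0.52 in the order given. Tpi1 differed by 0.04, 0.17 and 1.02, and was thus widest in the remaining libraries. Slc16a3 had the reverse order, with 2.02, 1.25 and 0.28. Slc2a1 differed by 0.35, -0.05 and 1.16, and thus not in 1 direction.

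**Figure D4:**
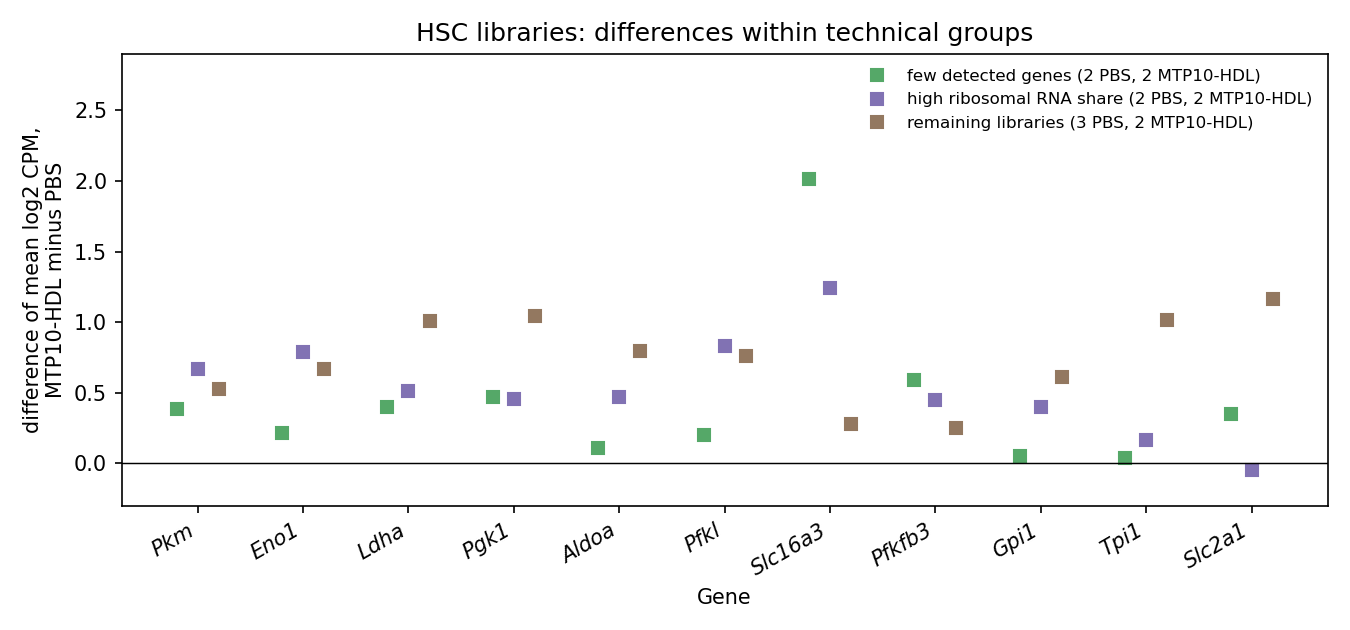
Difference of mean log2 CPM, MTP10-HDL minus PBS, within each technical group of HSC libraries (2 PBS and 2 MTP10-HDL, 2 and 2, and 3 and 2) for the 11 genes with an unadjusted p under 0.05. All points lie above 0 except Slc2a1 in the libraries with a high ribosomal RNA share (-0.05).

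Other genes of the pathway were tested in the same fit, from a list of 46 that holds minor transporter and enzyme isoforms, glycerol 3-phosphate and gluconeogenic enzymes and carrier partners. In HSCs 38 were tested, 28 had positive fold changes, and 2 were higher and 2 lower with an unadjusted p under 0.05. The smallest p-values belonged to Pklr, the pyruvate kinase of liver and red cells, and Emb, which encodes embigin, a chaperone of monocarboxylate carriers. Pklr was at 14.7 ± 6.29 CPM in controls and 4.05 ± 2.09 CPM after treatment (log2 fold change -1.86, SE 0.39), with ranges of 5.40 to 24.7 and 1.78 to 7.10 CPM. Emb was at 149 ± 26.8 and 230.5 ± 37.0 CPM (log2 fold change 0.63, SE 0.14), with ranges of 117 to 189 and 169 to 266 CPM. Both had an adjusted p of 0.206 (edgeR's quasi-likelihood test with Benjamini-Hochberg adjustment). The estimates for the pyruvate kinase genes Pkm and Pklr thus had opposite signs. Of 23 regulators of the pathway, 13 had positive fold changes, and Prkaa2, a catalytic subunit of AMP-activated kinase, had the smallest p. Prkaa2 was at 15.6 ± 3.28 and 8.18 ± 1.74 CPM (log2 fold change -0.93, SE 0.23), with an adjusted p of 0.252 in the same test. Egln1, which encodes the oxygen sensor PHD2 that marks hypoxia-inducible factors for degradation, was at 40.4 ± 5.50 and 53.2 ± 11.6 CPM (log2 fold change 0.39, SE 0.16).

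Markers of other cells differed in mean level between the groups of the HSC table. All 14 tested erythroblast markers were lower with MTP10-HDL, 12 of them with an unadjusted p under 0.05, and their summed level was 240 to 638 CPM in controls and 106 to 262 CPM after treatment. The globin Hbb-bs was at a mean of 24.3 and 9.60 CPM. All 14 tested neutrophil markers were higher, none of them at that p. Of the monocyte and macrophage markers 10 of 14 were higher, 1 at that p, and their sums ran from 291 to 2999 and from 394 to 4732 CPM. All 10 tested B cell markers were lower, 7 of them at that p, with sums of 46.2 to 455 and 48.9 to 122 CPM. All 4 tested basophil and mast cell markers were lower at that p, with sums of 71.8 to 215 and 30.9 to 100.0 CPM. Of 14 stem and progenitor markers 7 were higher and 7 lower. The part of these cells in the values of the glycolytic genes, of Pklr and of Bpgm was not tested.

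In MPPs, the median difference of the set was near 0, while Tpi1, Gapdh, Pgk1, Eno1, Pkm, Ldha, Pdha1 and Dlat were among the genes higher in every MTP10-HDL library than in both PBS libraries. Of 35 rows tested, 18 had positive fold changes (51.4%, against 52.0% of 15449 genes), and the median log2 fold change was 0.01, against 0.02 over all genes. No gene was called at the FDR by edgeR (0%), 181 were by DESeq2, and no member was by either or by limma voom. An unadjusted p under 0.05 was reached by 2 members, Slc16a1 and Gapdh, both higher (5.71%, against 6.23% of all genes in either direction and 2.17% higher), and by none that was lower (against 4.06%). Among genes with a mean of at least 10 CPM, 2 of 29 members and 2.81% of all genes were higher at that p. Without PBS 3, no member reached that p. Without replicates MTP10-HDL 1 or PBS 2, 1 member did, without MTP10-HDL 3 none did, and without MTP10-HDL 2 there were 3. All MTP10-HDL libraries lay above both PBS libraries for 12 of 35 rows (34.3%, against 12.0% of all genes), namely Slc16a1, Gpi1, Pfkl, Tpi1, Gapdh, Pgk1, Eno1, Pkm, Ldha, Mpc2, Pdha1 and Dlat, and below them for Aldoc and Tigar (5.71%, against 12.3%). Other measures also separated these groups without overlap: ribosomal RNA genes took 1.26% and 1.47% of counts in controls and 0.508% to 0.915% after treatment, and immunoglobulin genes 6.20% and 12.5% against 2.76% to 4.26%. The treated libraries were deeper as well, with 17555267 to 32769369 counts against 11252479 and 14691375. The part of these measures in the values of the set was not tested. The summed level of the set was 3614 and 3924 CPM in controls and 4125 to 4638 CPM after treatment.

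Slc16a1 was at 71.5 and 55.6 CPM in PBS 2 and 3 and at 76.9, 119 and 97.4 CPM in MTP10-HDL 1, 2 and 3. MTP10-HDL 1 lay just above PBS 2. The log2 fold change was 0.62 (SE 0.25, adjusted p = 0.787 by edgeR's quasi-likelihood test with Benjamini-Hochberg adjustment). Slc16a3, the other lactate carrier, was at 5.38 and 9.47 CPM in controls and 4.89, 6.00 and 8.31 CPM after treatment. Its groups overlapped, and the log2 fold change of -0.21 became 0.25 without PBS 3. The glucose transporter Slc2a1 was at 27.6 and 28.8 CPM in controls and 30.4, 30.0 and 27.7 CPM after treatment. These 5 libraries lay within 3 CPM of each other, with a log2 fold change of 0.06 (SE 0.20). Hk2 was at 58.6 and 51.8 CPM in controls and 44.4, 50.0 and 54.1 CPM after treatment (log2 fold change -0.16, SE 0.20). All 3 hexokinases had negative fold changes in MPPs.

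Pfkl was at 121.1 and 121.3 CPM in controls and 127, 153 and 124 CPM after treatment, a log2 fold change of 0.15 (SE 0.20). Pfkp, its platelet-type counterpart, was at 71.9 and 53.8 CPM in controls and 53.1, 42.1 and 56.0 CPM after treatment (log2 fold change -0.32, SE 0.23). PBS 2 was the high library for Pfkp, and PBS 3 lay among the treated ones. Tpi1 was at 226 and 252 CPM in controls and 292, 342 and 329 CPM after treatment (log2 fold change 0.42, SE 0.20). Gpi1, one step earlier than the phosphofructokinases, was at 421 ± 20.3 and 504 ± 39.9 CPM, and Aldoa at 287 ± 27.3 and 278 ± 29.2 CPM. Tigar, on 5.22 to 12.9 CPM, was at 8.51 and 12.9 CPM in controls and 6.81, 5.22 and 7.10 CPM after treatment. Its treated libraries all lay below both controls, with a log2 fold change of -0.75 (SE 0.35).

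Gapdh was at 216 and 223 CPM in controls and 297, 283 and 333 CPM after treatment, a log2 fold change of 0.47 (SE 0.20, adjusted p = 0.789 in the same edgeR test). The gap between the groups was wider than the spread within either. Pgk1 was at 70.8 and 81.6 CPM in controls and 92.6, 108 and 104 CPM after treatment (log2 fold change 0.41, SE 0.20). Eno1 was at 70.1 and 78.3 CPM in controls and 93.8, 96.9 and 108 CPM after treatment (log2 fold change 0.43, SE 0.19). Neither gene's groups overlapped. Pkm was at 577 and 656 CPM in controls and 663, 781 and 814 CPM after treatment, where the lowest treated library lay close to PBS 3 (log2 fold change 0.29, SE 0.22). Pgam1, Bpgm and Eno2 had negative log2 fold changes of -0.12, -0.01 and -0.60.

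**Figure D5:**
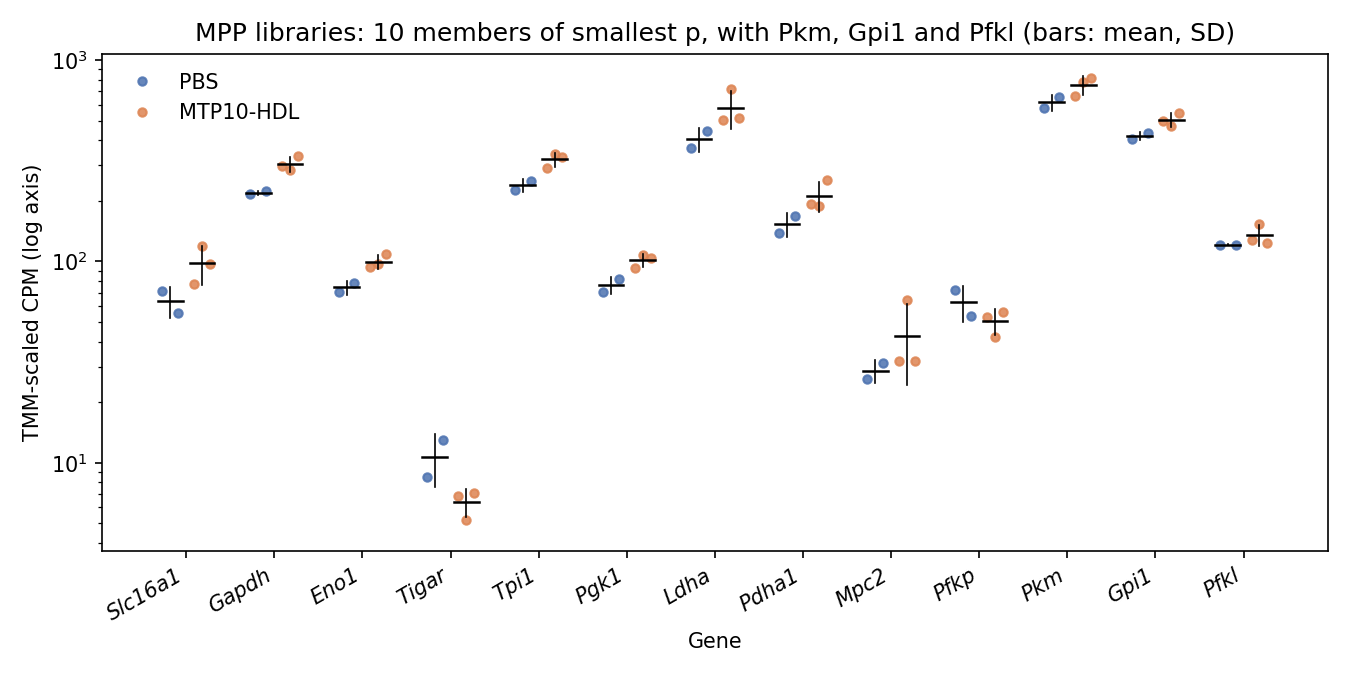
TMM-scaled CPM on a log axis in each MPP library, PBS (blue, n = 2) and MTP10-HDL (orange, n = 3), for the 10 members of smallest p and for Pkm, Gpi1 and Pfkl, with the mean (horizontal line) and SD (vertical line). Among genes drawn, Tigar has its treated libraries below both PBS libraries, at 5.22 to 7.10 CPM against 8.51 and 12.9 CPM.

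Ldha was at 367 and 443 CPM in controls and 503, 720.3 and 515 CPM after treatment. MTP10-HDL 2 was the highest, and the log2 fold change was 0.52 (SE 0.25). Ldhb was at 63.5 ± 10.0 and 63.8 ± 14.7 CPM (log2 fold change 0.01). Ldha held 86.3% and 86.7% of the counts of both subunits with PBS and 89.9% to 90.2% with MTP10-HDL. These shares did not overlap, but they were not tested. With 2 against 3 libraries, levels did not overlap for many genes (12.0% of all genes higher and 12.3% lower with MTP10-HDL). Pdha1 was at 139 and 168 CPM in controls and 193, 189 and 253 CPM after treatment (log2 fold change 0.46, SE 0.23). Mpc2 was at 26.0 and 31.1 CPM in controls and 32.0, 64.3 and 32.2 CPM after treatment. Its log2 fold change of 0.59 (SE 0.35) goes with 1 high library, MTP10-HDL 2. Mpc1 was at 6.74 and 3.45 CPM in controls and 4.45, 4.47 and 3.91 CPM after treatment (log2 fold change -0.25, SE 0.45). PBS 2 alone was high for Mpc1, and leaving it out turned the estimate to 0.30. With the counts of 1 named Mpc1 copy added, the log2 ratio of the MPP means was 0.00. Over the 7 rows of pyruvate entry, 5 had positive fold changes, with a median of 0.24. Among the members not described above, log2 fold changes in MPPs ran from -0.49 for Pfkfb2 to 0.30 for Pdhb.

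Of the other pathway genes in MPPs, 35 were tested and 24 had positive fold changes, 2 higher and 1 lower with an unadjusted p under 0.05. Emb had the smallest p, with 345 ± 12.8 CPM in controls and 565 ± 57.4 CPM after treatment. Its log2 fold change was 0.71 (SE 0.21), and its adjusted p was 0.593 by edgeR's quasi-likelihood test with Benjamini-Hochberg adjustment. Me2, the mitochondrial malic enzyme, which makes pyruvate from malate, followed with 55.3 ± 3.61 and 81.7 ± 11.0 CPM (log2 fold change 0.56, SE 0.21). Of 22 regulators tested, 8 had positive fold changes and none an unadjusted p under 0.05. Those of smallest p were Mycn, a MYC family factor, at 53.9 ± 0.869 and 40.7 ± 6.54 CPM, and Sirt6, a histone deacetylase that restrains glycolytic genes, at 18.4 ± 4.92 and 12.9 ± 1.86 CPM. Erythroblast markers were lower in MPPs too, for 13 of 14 tested and with sums of 88.4 to 120 CPM in controls and 22.7 to 46.5 CPM after treatment, and 11 of 14 stem and progenitor markers were lower. Their part in the values of the set was not tested.

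The difference between the responses (MPP minus HSC) was tested in 1 fit of all 4 groups. Preparation kit and depth differed along with cell type, so their parts in such a difference cannot be told apart. By edgeR's quasi-likelihood test, 1 of 24470 genes was called (0.00409%) and none of the 35 rows of the set. None of these rows reached an unadjusted p under 0.05 either, against 3.86% of all genes, but limma voom gave 3 such rows. Leaving out MPP MTP10-HDL 1 gave 2, and leaving out HSC MTP10-HDL 3, HSC PBS 5, HSC PBS 7, MPP MTP10-HDL 3 or MPP PBS 2 gave 1. The smallest p-values belonged to Slc16a1 (difference 0.79 on the log2 scale, SE 0.39), Mpc2 (0.81, SE 0.43), Slc16a3 (-1.30, SE 0.73) and Aldoa (-0.50, SE 0.29), all with an adjusted p of 1.00 (edgeR, Benjamini-Hochberg). The estimates for Slc16a1 and Slc16a3 thus had opposite signs, with wide errors. Of the 11 genes with an unadjusted p under 0.05 in HSCs, 9 had positive fold changes in MPPs (52.0% of all MPP genes did), and Aldoa and Slc16a3 did not. For 7 of them, Pkm, Eno1, Ldha, Pgk1, Pfkl, Gpi1 and Tpi1, all treated MPP libraries lay above both controls, as for 12.0% of all MPP genes.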

How the data were processed

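RNA was measured by sequencing in 13 HSC and 5 MPP libraries, grouped by the labels. The authors deposited raw counts in 1 table per cell type, with Ensembl genes as rows. Per the labels' protocols, HSC libraries came from amplified complementary DNA and MPP libraries from directional preparations with poly-A selection. The submitters' processing notes name mm10 as the genome, with STAR 2.5.2b and CASAVA 1.8.2 for the HSC samples and STAR 2.7.2a, R 3.6.1 and DESeq2 1.24 for the MPP samples. The counting tool, strand setting and handling of multiply mapped reads are not stated in the labels or file headers. HSC PBS libraries carry the numbers of the table, 1 to 7, since the labels number them differently.

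In R 4.3.3, edgeR 4.0.16 fitted each cell type apart (TMM scaling, filterByExpr defaults, quasi-likelihood F test), with Benjamini-Hochberg adjustment over all genes tested and an FDR threshold of 0.05. The SE was derived from the F statistic. Log2 CPM used a prior count of 2. Scripts were tested on simulated data. Alternatives used limma 3.58.1, DESeq2 1.42.0, other scalings and filters, and left out each library. Positions and promoters came from RefSeq on GRCm38.p6, and 16 of the 34 genes overlap another gene there. Described with their values were the 10 members of smallest p in each cell type, and Slc2a1, Hk2, Pfkl, Pfkp, Pkm, Ldha, Slc16a3, Mpc1 and Pdha1 in both, together with the 2 other pathway genes and 2 regulators of smallest p. The members and lists were chosen with earlier results of these data known. Means are given with the SD over the libraries of a group.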

Additional observations from a re-analysis of the deposited data

Results flagged for a closer look

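A single HSC library stood apart from its group, by Dixon's test at the 95% level, in 5 of the 70 combinations of gene and treatment examined, and chance gives about 1 in 20. Gpi1 was at 186.0 CPM in PBS 4, against 97.97 to 130.8 CPM in the other PBS libraries. Ldhb was at 37.65 CPM in the same library, against 20.26 to 27.58 CPM. Aldoa was at 81.46 CPM in PBS 7, against 126.0 to 157.2 CPM. Pgam1 was at 4.546 CPM in PBS 1, against 1.045 to 2.427 CPM, on few reads. Aldoc was at 16.75 CPM in MTP10-HDL 5, against 9.164 to 11.81 CPM in the other MTP10-HDL libraries.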

How the results depend on the processing

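No member was called at the FDR in either cell type under any alternative run. In HSCs the genes called numbered 44 with no filter and 85 with DESeq2, against 0 as reported. With each library left out in turn, HSC genes called ranged from 0 to 1 (without MTP10-HDL 4), members with an unadjusted p under 0.05 from 8 (without PBS 5) to 13 (without PBS 4) and the median log2 fold change from 0.13 to 0.29 (without PBS 1). Counted after seeing the data, members with a positive fold change numbered 25 to 30 in HSCs and 15 to 21 in MPPs over all alternatives, which test 29 to 35 rows. With no filter the median of all HSC genes was -0.15. Pfkp in HSCs was at -0.043 with upper quartile scaling and -0.033 above 10 CPM, Slc2a1 in MPPs at -0.0050 above 10 CPM, and Mpc1 in HSCs, with 1 library left out, ranged from -0.10 (without MTP10-HDL 2) to 0.48.

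In MPPs, genes called numbered 345 with no filter and 181 with DESeq2. Members with an unadjusted p under 0.05 numbered 1 with RLE, 0 with upper quartile scaling, 0 above 10 CPM and 4 with DESeq2. The MPP median log2 fold change was -0.011 with RLE, -0.044 with upper quartile scaling, 0.080 above 10 CPM, -0.011 with DESeq2 and -0.0059 with limma voom. Leaving out 1 library gave 0 to 17 genes called (17 without PBS 3), 0 to 3 members at that p and medians of 0.037 to 0.089, while Mpc1 ranged from -0.65 to 0.30 (without PBS 2) and Slc16a3 from -0.58 to 0.25 (without PBS 3). Leaving out a PBS library leaves 1, assumed to vary like the treated ones.

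Whether replicate numbers pair the samples could not be settled. Correlations of deviations ran from -0.19 to 0.19 over 6 HSC pairs and were -0.17 and -0.03 for 2 MPP pairs. The numbers of the HSC PBS libraries may have been shifted against the labels. In MPPs the deviations of the 2 PBS libraries mirror each other, so their correlations cannot decide on pairing. With the replicate block, HSCs had 0 genes called, 9 members with an unadjusted p under 0.05 and a median of 0.18, and MPPs had 59 genes called, 0 such members and a median of 0.043. In MPPs, MTP10-HDL 1 has no PBS library of its number, and the block leaves little to estimate the spread from. The count of genes called there thus cannot decide on pairing. With 1 library left out, members with an unadjusted p under 0.05 for the difference of the responses numbered 0 to 2, and they numbered 1 with RLE, 1 above 10 CPM and 3 with limma voom. The causes were not tested. Some HSC libraries held 10 or fewer counts of Mpc1, Pgam1, Tigar, Eno2 and Slc16a3.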
